A study of Mus musculus with 4 samples.

Results

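The 39 genes described here act in the cell division cycle. They were taken by symbol from a list given for this series, out of 32285 genes in the tables, and all 39 were detected in each library. They divide into 10 genes of DNA replication, called S phase members here, 27 genes that act from late G2 to the end of cell division, called mitosis members, and 2 genes of broader use, Stmn1 and Kpna2. Spinal cords of mice from 4 groups were dissociated and measured by 3′ single-cell RNA sequencing, with 1 library for each group and 2 cords pooled in each. One group, P301S neg CD8 WT, was 30 weeks old. P301S hom CD8 WT mice were taken at 2 ages, 30 and 33 weeks, and the last group, aged 30 weeks, was labelled P301S hom CD8 KO. The promoter that drives the tau transgene was not given in the sources used here. P301S is a mutation of the protein tau, used in mouse models of tau disease, and P301S neg mice do not carry it. In each group the animals were perfused with saline, the cords were dissociated with a heated enzymatic kit and myelin was removed with beads.

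A class of cells is named here by RNA markers alone, so each name ends in "-like". Levels are given in CPM, the UMIs of a gene (unique molecular identifiers, 1 for each captured RNA molecule) in all cells of 1 class and library, divided by the UMIs of all genes there and put on the usual CPM scale. Where 4 values stand without names, P301S neg comes first, followed by the 30-week and 33-week P301S hom CD8 WT libraries, and CD8 KO is last. Since each group is 1 library, no group difference could be tested. The intervals are exact 95% intervals for counting error only and do not cover differences between mice.

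The division cycle copies the genome in S phase and separates the copies in mitosis. Replication genes are switched on as a cell leaves G1, largely by E2F factors, and the mitotic genes later, through promoter elements such as the cell cycle homology region and CCAAT boxes. In adult nervous tissue most cells have left the cycle. Oligodendrocyte precursors keep dividing at a low rate, microglia divide when activated, and blood precursors in the marrow divide often.

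The promoters of the 2 S phase and 3 mitosis members with most UMIs show the motif contrast between the 2 groups of genes. The windows run from 250 bases before to 50 bases after the RefSeq start, in build GRCm38.p6, and are written 5′ to 3′ on the strand of the gene. Capitals mark 3 kinds of motif searched on both strands: the cell cycle homology region core TTTGAA, the CCAAT box CCAAT, and the E2F sequences TTTGGCGC, TTTCCCGC, TTTGCCGC and TTTCGCGC. On the opposite strand the core reads TTCAAA, the box reads ATTGG and the E2F sequence of Pclaf reads GCGGGAAA. The Pcna window is at chr2:132253131-132253430 on the minus strand, Pclaf at chr9:65890073-65890372 on the plus strand, Ube2c at chr2:164769679-164769978 on the plus strand, Top2a at chr11:99024140-99024439 on the minus strand and Mki67 at chr7:135716330-135716629 on the minus strand.
Pcna: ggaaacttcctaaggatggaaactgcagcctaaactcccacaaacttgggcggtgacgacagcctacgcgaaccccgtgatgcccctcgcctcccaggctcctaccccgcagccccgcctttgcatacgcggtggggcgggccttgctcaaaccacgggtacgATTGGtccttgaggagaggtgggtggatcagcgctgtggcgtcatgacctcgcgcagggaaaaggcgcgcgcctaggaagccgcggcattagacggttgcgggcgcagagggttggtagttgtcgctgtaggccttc
Pclaf: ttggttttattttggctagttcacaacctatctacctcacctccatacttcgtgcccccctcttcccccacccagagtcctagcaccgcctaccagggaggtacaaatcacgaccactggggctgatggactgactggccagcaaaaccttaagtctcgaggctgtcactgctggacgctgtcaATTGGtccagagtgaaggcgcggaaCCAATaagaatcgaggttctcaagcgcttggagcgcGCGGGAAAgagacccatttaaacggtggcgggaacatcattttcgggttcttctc
Ube2c: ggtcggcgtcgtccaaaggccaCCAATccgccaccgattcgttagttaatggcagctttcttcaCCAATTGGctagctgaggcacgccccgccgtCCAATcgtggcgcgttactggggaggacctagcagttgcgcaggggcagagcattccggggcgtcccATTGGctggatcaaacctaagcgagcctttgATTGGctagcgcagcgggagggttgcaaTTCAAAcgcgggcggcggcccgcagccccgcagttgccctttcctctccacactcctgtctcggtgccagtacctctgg
Top2a: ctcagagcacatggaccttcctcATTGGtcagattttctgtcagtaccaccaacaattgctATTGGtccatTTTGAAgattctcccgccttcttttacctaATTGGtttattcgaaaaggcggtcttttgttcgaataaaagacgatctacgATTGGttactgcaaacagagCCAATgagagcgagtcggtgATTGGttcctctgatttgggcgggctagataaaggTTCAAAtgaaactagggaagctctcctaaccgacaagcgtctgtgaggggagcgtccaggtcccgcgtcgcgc
Mki67: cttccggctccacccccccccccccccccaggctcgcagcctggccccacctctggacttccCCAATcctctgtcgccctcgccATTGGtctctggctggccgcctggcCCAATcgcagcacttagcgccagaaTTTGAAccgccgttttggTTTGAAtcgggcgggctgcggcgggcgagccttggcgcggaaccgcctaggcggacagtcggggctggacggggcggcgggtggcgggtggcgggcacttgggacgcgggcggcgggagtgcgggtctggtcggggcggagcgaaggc

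In these windows Ube2c held 1 cell cycle homology core and 6 CCAAT boxes, 2 of which overlap in CCAATTGG. Top2a held 2 cores and 6 CCAAT boxes, and Mki67 held 2 cores and 3 CCAAT boxes. Pclaf held 1 E2F sequence and 2 CCAAT boxes, and Pcna held 1 CCAAT box. Of the 27 mitosis members, 23 matched a RefSeq promoter entry, with 24 windows, and 18 of these windows (75%) held the core TTTGAA, against 17.9% of all 32851 windows. Among the 10 windows of S phase members 1 (10%) held it, that of Mcm2, a subunit of the replicative helicase. CCAAT stood in 21 of 24 mitosis windows (87.5%) and 8 of 10 S phase windows (80%), against 37.4% of all windows. The E2F sequences ran the other way: 4 of 10 S phase windows (40%) held one, namely Mcm3, Mcm5, Mcm6 and Pclaf, against 1 of 24 mitosis windows (4.17%), that of Cdk1, and 2.26% of all windows. The windows of Tk1, Tyms, Birc5, Knstrn and Nusap1 held none of these letters. A match is a stretch of letters and not a measured binding site.

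The libraries held 22644 cell barcodes, of which 20164 were kept, with median depths from 5255 to 7163 UMIs per cell. Libraries shared 5 to 12 barcodes per pair. The cells of the 30-week P301S hom CD8 WT library were called female (3722 female cells, 0 male), those of the library labelled CD8 KO nearly all male (3085 male, 4 female), and the other 2 libraries held both, so sex and CD8 genotype cannot be told apart at 30 weeks. In T-like cells Cd8a had 44, 67 and 62 UMIs in the 3 CD8 WT libraries and 0 in the library labelled CD8 KO. Its 1244 endothelial-like cells held 964 Cd8a UMIs, against 0 in those of the other libraries. Whether the captured 3′ end lies in the deleted part was not given in the sources used here. Erythroid-like, B precursor-like and early neutrophil-like cells were present in all 4 libraries beside the cells of the cord. Cells set aside as mixed numbered 1736.

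A cell was called positive at 3 or more UMIs over the 39 members. By this rule 7221 of the kept cells were positive, and their share hardly varied between libraries, at 36.0% in P301S neg, 37.0% and 34.9% in P301S hom CD8 WT at 30 and 33 weeks, and 35.4% in the library labelled CD8 KO. The cells behind that share differed: macrophage-like cells made up 10.3%, 40.3%, 27.5% and 42.4% of the positive cells of the 4 libraries. For endothelial-like cells these shares were 38.7%, 23.4%, 21.9% and 29.1%. Yet mitosis UMIs were few in both classes, as the next values show. Cells of 16 classes with at least 100 cells are compared below, without regard to their numbers.

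The mitosis members together were highest in erythroid-like cells (5644 CPM over the 4 libraries) and B precursor-like cells (5529 CPM). Early neutrophil-like cells (2878 CPM), monocyte-like cells (2564 CPM) and intermediate neutrophil-like cells (1955 CPM) came next, then oligodendrocyte precursor-like cells at 584 CPM. T-like (235 CPM), mature B-like (142 CPM), ependymal-like (110.1 CPM) and macrophage-like cells (102 CPM) were lower. The lowest were mature neutrophil-like (45.2 CPM), Schwann-like (42.1 CPM), fibroblast-like (24 CPM), astrocyte-like (20.04 CPM) and endothelial-like cells (18.7 CPM). The order of the top 2 classes changed between libraries: erythroid-like cells were higher in 2 of 4 (the 30-week P301S hom CD8 WT library and the library labelled CD8 KO), B precursor-like cells in the other 2.

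**Figure D1:**
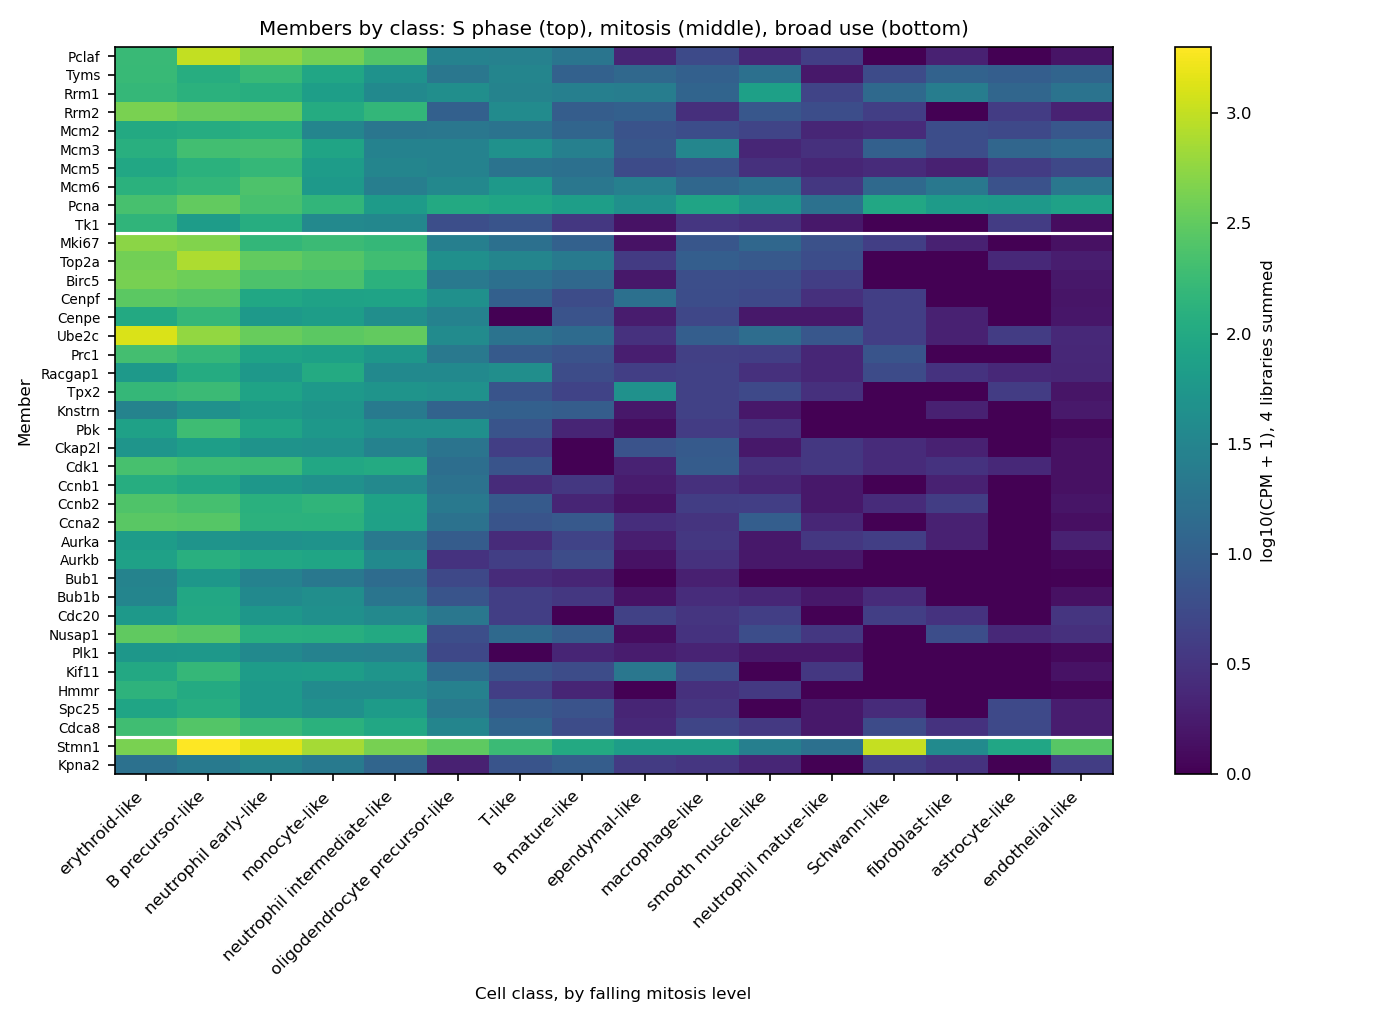
Level of each of the 39 members (rows) in the 16 classes with at least 100 cells (columns, by falling summed mitosis level), as log10(CPM + 1) over the 4 summed libraries; colours are to be read along a row, since capture differs between genes. Most mitosis rows are bright in the 5 blood precursor classes on the left and dark on the right, while Pcna and Stmn1 have colour across the whole width.

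Single members followed this order with exceptions. Among mitosis members 12 were highest in erythroid-like cells, 14 in B precursor-like cells and 1, Knstrn, a spindle and kinetochore protein, in early neutrophil-like cells (62.6 CPM). Those highest in B precursor-like cells included Top2a (790.1 CPM against 398 CPM in erythroid-like cells), which untangles DNA strands, the kinesins Cenpe (155 against 101 CPM) and Kif11 (155 against 96.8 CPM), and the mitotic kinases Aurkb (119 CPM), Bub1 (55.4 CPM), Bub1b (94.0 CPM), Plk1 (56.3 CPM) and Pbk (186 CPM). The others were Racgap1 (106 CPM), Tpx2 (179 CPM), Ckap2l (68.9 CPM), Cdc20 (98.2 CPM), Spc25 (113 CPM) and Cdca8 (263 CPM). Of the S phase members, 5 were highest in early neutrophil-like cells: Tyms (166 CPM), which makes thymidylate, and the helicase subunits Mcm2 (121 CPM), Mcm3 (208 CPM), Mcm5 (155 CPM) and Mcm6 (237 CPM). Pclaf (1005 CPM), which binds the replication clamp, and Pcna (317 CPM), the clamp itself, were highest in B precursor-like cells. Rrm1 (156 CPM) and Rrm2 (434 CPM), the subunits of ribonucleotide reductase, and Tk1 (142 CPM), thymidine kinase, were highest in erythroid-like cells. For Tyms the lead was narrow, with 165 CPM in erythroid-like cells. Stmn1, which destabilises microtubules, was highest in B precursor-like cells (1999 CPM), and Kpna2, an importer of nuclear proteins, in early neutrophil-like cells (29.3 CPM).

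The share of positive cells did not follow the levels. It was 80.4% in erythroid-like and 94.7% in early neutrophil-like cells, but also 51.5% in ependymal-like, 53.2% in Schwann-like and 41.5% in endothelial-like cells. Mature neutrophil-like cells, which have left the cycle, had the lowest share at 0.415% (95% interval 0.113 to 1.06), at a median of 1481 UMIs per cell. In the other classes with at least 100 cells the median was 2128 UMIs or more, so the comparison is not at equal depth. Mature neutrophil-like cells were also lowest for Pcna (16.1 against 77.2 CPM in endothelial-like cells) and Stmn1 (15.5 against 274 CPM). Their share is thus not a background for the other classes. When each cell was thinned to 1000 UMIs, which left out 1027 cells (347, 156, 299 and 225 by library), the share was 43.0% in erythroid-like, 75.2% in early neutrophil-like, 23.1% in B precursor-like, 24% in monocyte-like and 18.4% in intermediate neutrophil-like cells. It was 12.8% in oligodendrocyte precursor-like cells, 15.9% in Schwann-like cells, 4.23% in T-like, 0.844% in ependymal-like, 1.26% in macrophage-like and 1.5% in endothelial-like cells.

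**Figure D2:**
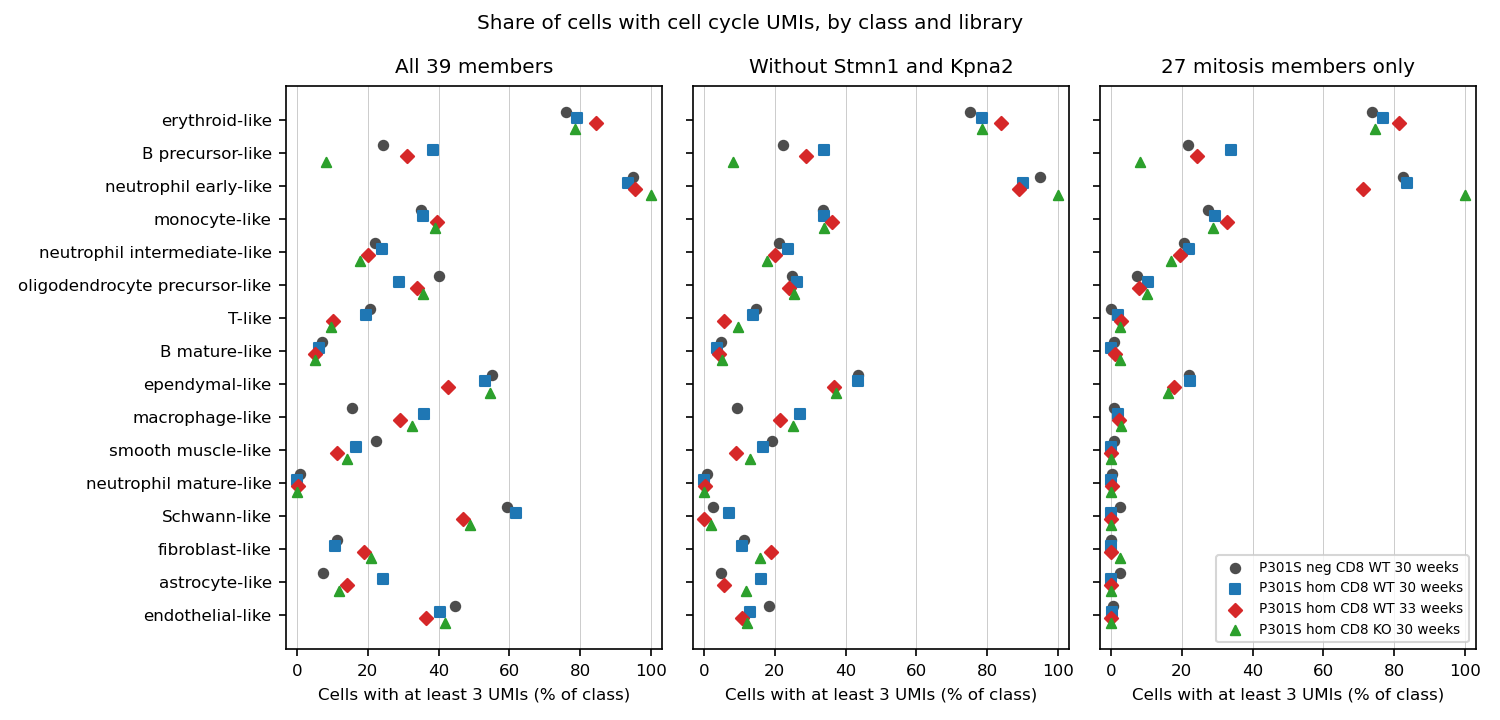
Share of cells with at least 3 UMIs (horizontal axis, percent of the class) in each library and class, counted over all 39 members (left), without Stmn1 and Kpna2 (middle) and over the 27 mitosis members (right). Schwann-like cells go from 53.2% to 2.93% when Stmn1 and Kpna2 are left out, and endothelial-like cells go from 41.5% to 14.2% and then to 0.240% over mitosis members, while erythroid-like cells stay near the right edge at 77.6%.

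Classes also differed in the balance of S phase and mitosis UMIs. This balance depends on which genes are in each group, so it is read across classes only. S phase UMIs made up 23.4% of the S phase and mitosis UMIs in erythroid-like cells, 26.3% in intermediate neutrophil-like, 30.0% in monocyte-like, 31.8% in B precursor-like and 43.6% in early neutrophil-like cells. They made up 61.9% in macrophage-like, 76.7% in Schwann-like, 84.4% in fibroblast-like, 84.6% in astrocyte-like and 89.0% in endothelial-like cells. In each of the last 4 classes Pcna was the S phase member with most UMIs, at 60.1 to 93.5 CPM, and the mitosis member with most UMIs did not pass 6.23 CPM. Pcna also acts in DNA repair, outside S phase.

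**Figure D3:**
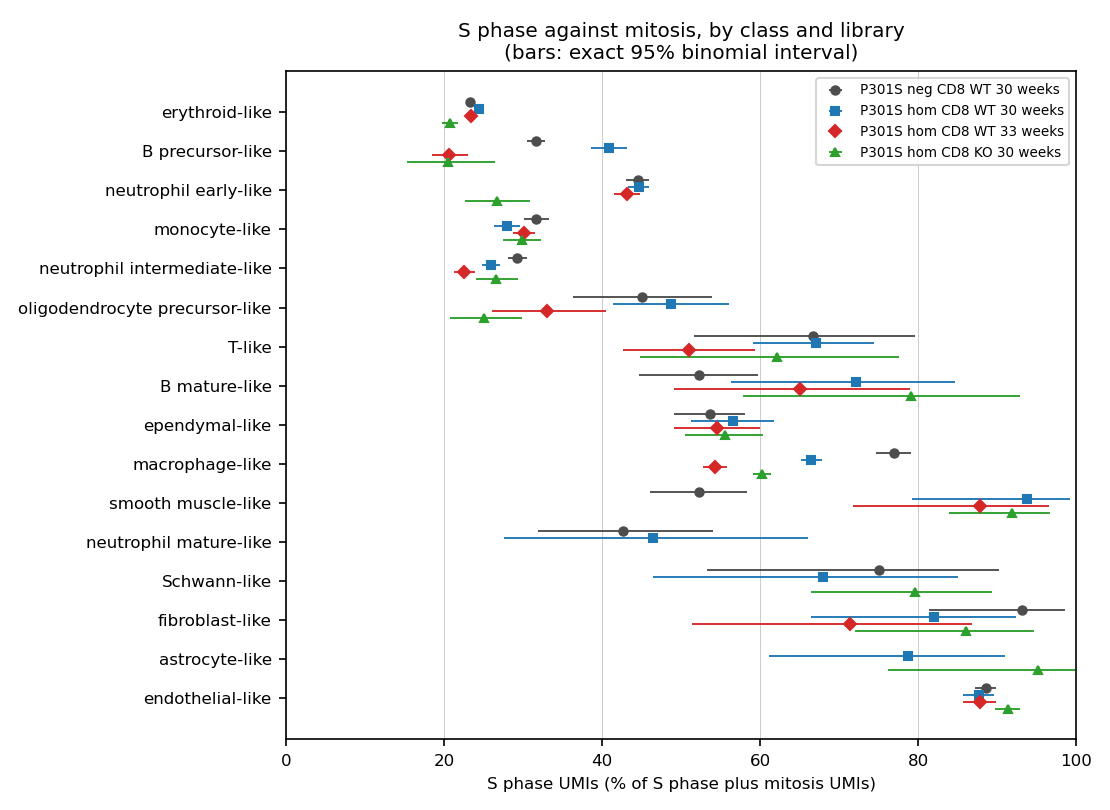
S phase UMIs as a percent of S phase plus mitosis UMIs (horizontal axis) for each class and library with at least 20 such UMIs; bars are exact 95% binomial intervals. Erythroid-like cells lie between 20.7% and 24.4% in all 4 libraries and endothelial-like cells between 87.8% and 91.4%, while macrophage-like cells spread from 54.3% to 77%.

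Erythroid-like cells are haemoglobin-making precursors of red cells, which divide several times and then leave the cycle and lose their nucleus. Their mitosis members summed to 4407 CPM in P301S neg, 6307 and 6709 CPM in P301S hom CD8 WT at 30 and 33 weeks and 4787 CPM in the library labelled CD8 KO, over 355, 211, 482 and 98 cells. Ube2c, a ubiquitin-conjugating enzyme that works with the anaphase-promoting complex, stood at 1041, 1472, 1531 and 1102 CPM in that order. Mki67, the coat of mitotic chromosomes, stood at 403, 582, 657 and 403 CPM, and Rrm2 at 329.9, 484, 535 and 326 CPM. All 3 genes were higher in the 2 P301S hom CD8 WT libraries than in the other 2.

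These levels were averages over 3 clusters that differed far more from each other than the libraries did. No member was used in the clustering, but genes that inhibit the cycle or act at exit from it were not left out. In cluster 0, with 463 cells, every cell was positive, and the mitosis members reached 10350 CPM. Cluster 3, with 382 cells, had 976 CPM, and the remaining cells, cluster 21, had 377 CPM. S phase UMIs made up 24.3% in cluster 0 but 5.23% and 5.63% in the other clusters.

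Between the erythroid clusters the members separated into those that were nearly absent outside cluster 0 and those that were not. Pcna stood at 412 CPM in cluster 0, 3.14 CPM in cluster 3 and 8.57 CPM in cluster 21, and Tyms at 320, 1.97 and 1.07 CPM. Top2a stood at 773, 1.57 and 0.714 CPM, and Stmn1 at 839, 5.11 and 16.4 CPM. Mki67 kept 67.2 CPM in cluster 3 and had 2.86 CPM in cluster 21. Ube2c, by contrast, stood at 2163, 554 and 266 CPM, and Nusap1, which bundles spindle microtubules, at 499, 133 and 96.1 CPM. In cluster 21 Ube2c was at 246, 239, 283 and 338 CPM in the 4 libraries, so each library showed this remainder. Over those cells 57.1% were positive, and 1.67% after thinning to 1000 UMIs.

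**Figure D4:**
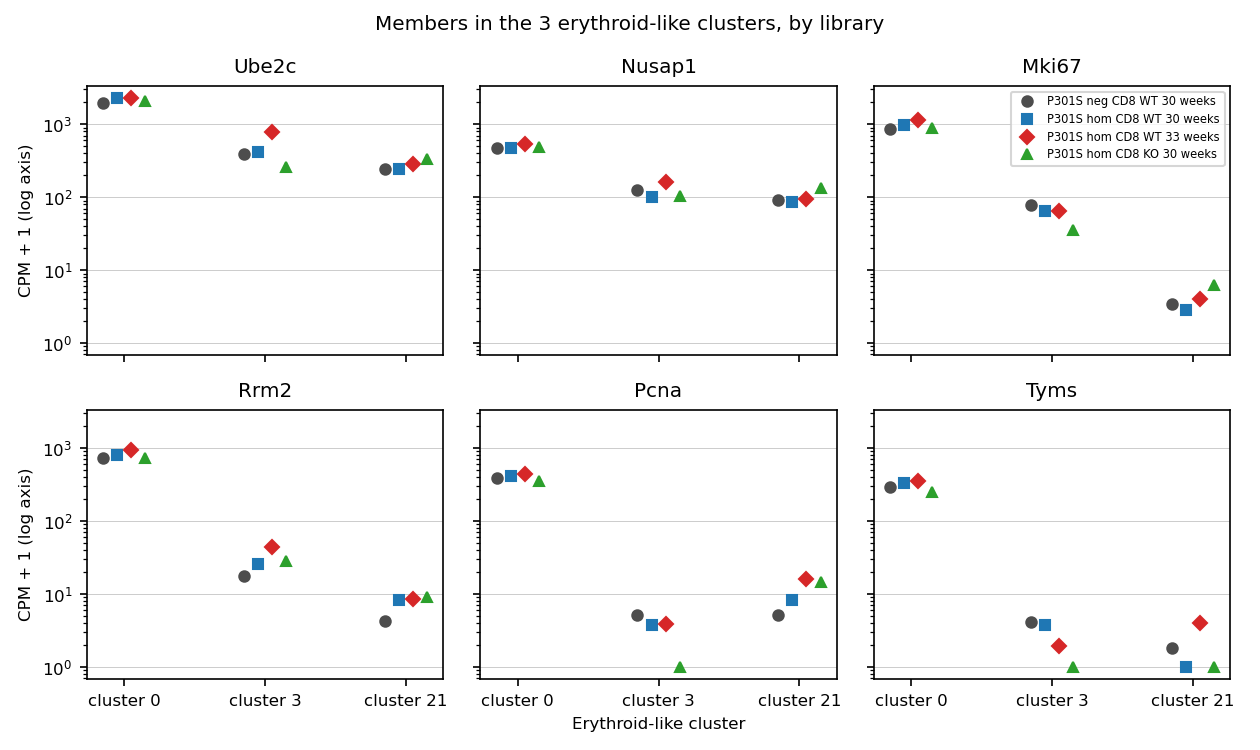
Levels of 6 members (CPM + 1, log axis) in the 3 erythroid-like clusters, with 1 point for each library. Pcna and Tyms are at 14.96 CPM or less in clusters 3 and 21 in every library, whereas Ube2c stays at 239 CPM or more and Nusap1 at 85.9 CPM or more.

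In the P301S hom over neg comparison at 30 weeks, 18 of 39 members were at least 1.5-fold higher in erythroid-like cells, against 37.5% of 7404 genes tested, and none was lower, against 3.24%. The median log2 ratio was 0.62 over S phase members and 0.57 over mitosis members, beside 0.47 over all genes tested. Set over CD8 WT, the library labelled CD8 KO had 13 of 39 members at least 1.5-fold lower (22.6% of genes tested) and none higher (7.15%). Of these 13, 8 were S phase members, with Mcm2 at 60.0 against 126 CPM and Mcm5 at 61.0 against 128 CPM (both chosen after their values were seen), and the median log2 ratio was -0.75 over S phase members, -0.40 over mitosis members and -0.25 over all genes tested. At 33 over 30 weeks 1 member, Kpna2, was lower (14% of genes) and none was higher (8.41%). The 3 clusters held unlike parts of the libraries: cluster 0 had 122 of 355 cells in P301S neg, 97 of 211 and 211 of 482 in P301S hom CD8 WT at 30 and 33 weeks, and 33 of 98 in the library labelled CD8 KO. Inside cluster 0 the mitosis members summed to 9291, 10303, 11252 and 10155 CPM, closer together than in the class. All 3 comparisons use the 30-week P301S hom CD8 WT library, here and below, so they are not independent.

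B precursor-like cells fell into 2 clusters with little between them. The 61 cells of cluster 104 were all positive, with 9813 CPM of mitosis and 4733 CPM of S phase members, while 7.53% of the 239 cells of cluster 100 were positive, with 709 and 141 CPM. Pclaf stood at 1879 against 21.4 CPM, Top2a at 1457 against 39.3 CPM and Stmn1 at 3546 against 259 CPM. The share of positive cells in the class was 24.5% in P301S neg (184 cells), 38.3% and 31.1% in P301S hom CD8 WT at 30 and 33 weeks (47 and 45 cells) and 8.33% in the library labelled CD8 KO (24 cells), and the 4 intervals overlapped each other. In the class as a whole Pclaf was at 929.8, 1637, 789 and 385 CPM in that order, Top2a at 705, 1007, 1126 and 472 CPM, and Ube2c at 565, 509, 889 and 455 CPM. Only 2 cells of the library labelled CD8 KO were in cluster 104.

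Along the neutrophil lineage the members went from high to near absent. Early neutrophil-like cells, which make granule enzymes, were positive in 95%, 93.4% and 95.6% of cells in the 3 CD8 WT libraries (40, 61 and 45 cells) and in all 4 cells of the library labelled CD8 KO. Intermediate cells were positive in 22%, 24%, 20% and 17.9%. Mature cells were positive in 0.977%, 0%, 0.338% and 0% of 307, 249, 296 and 112 cells, and the zeros allow shares of up to 1.20% and 2.68%. In early cells Pclaf stood at 603, 591, 548 and 124 CPM by library, Ube2c at 336, 346, 342 and 346 CPM and Top2a at 307, 347, 307 and 177 CPM. Ube2c thus varied little over the 3 CD8 WT libraries. In the library labelled CD8 KO the values of all 3 genes come from the 4 cells. In intermediate cells Pclaf was at 305, 248, 225 and 222 CPM, Ube2c at 298, 328, 374 and 279 CPM and Top2a at 211, 172, 201 and 220.2 CPM. In mature cells Pcna reached 25.9, 15.7, 4.60 and 13.03 CPM, Ube2c 13.8, 6.73, 0 and 0 CPM, and Mki67 13.8, 0, 2.30 and 0 CPM. These levels rest on few UMIs, for Ube2c 8, 3, 0 and 0 and for Mki67 8, 0, 1 and 0. In the library labelled CD8 KO 1 UMI made 6.52 CPM in these cells, so the zeros there do not show a fall.

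Intermediate neutrophil-like cells had more members past 1.5-fold for CD8 KO as labelled over CD8 WT than in the other 2 comparisons. For P301S hom over neg 4 of 39 members were at least 1.5-fold higher (5.5% of genes tested) and 2 lower (11.2%), and for 33 over 30 weeks 1 was higher (7.44%) and none lower (8%). For CD8 KO as labelled over CD8 WT 11 of 39 members were lower (10.4%) and 2 higher (15.5%). Of the 11, 8 were mitosis members, and the median log2 ratio was -0.23 over mitosis members and -0.01 over S phase members, beside 0.10 over all genes tested. The lower members included Aurka, a spindle pole kinase, at 8.39 against 23.99 CPM (ratio 0.35, interval 0.09 to 0.95), and Cdk1, the kinase that drives entry into mitosis, at 58.7 against 108 CPM (ratio 0.54, interval 0.35 to 0.81). For 4 of these 11, which also included Ccnb2 and Aurkb, the interval of the ratio lay below 1. These genes were chosen after their values were seen. That library had 95 such cells against 346.

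Monocyte-like cells had nearly equal shares, at 35.1%, 35.7%, 39.6% and 39% in the 4 libraries. Pclaf was at 386, 394, 461 and 364 CPM, Ube2c at 247, 315, 332 and 277 CPM and Top2a at 231, 235, 290.0 and 315 CPM. For P301S hom over neg 1 of 39 members was higher (6.63% of genes tested) and 1 lower (9.67%). For CD8 KO as labelled over CD8 WT 6 of 38 were higher (9.82%) and 4 lower (9.82%), and for 33 over 30 weeks 6 of 39 were higher (10.8%) and 1 lower (5.73%). Mcm3, chosen after its values were seen, was among the higher in both, at 56.5 CPM in the shared 30-week library, 98.2 CPM in the library labelled CD8 KO and 116 CPM at 33 weeks.

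Of the named classes of non-blood cells with at least 100 cells, oligodendrocyte precursor-like cells had the highest summed level of mitosis members over the 4 libraries. By library it was 327 CPM in P301S neg, 432 and 712 CPM in P301S hom CD8 WT at 30 and 33 weeks and 780 CPM in the library labelled CD8 KO, over 40, 38, 50 and 59 cells. Tpx2, a spindle assembly factor, stood at 13.6, 13.2, 48.3 and 87.0 CPM, from 3, 3, 8 and 31 UMIs, and Cenpf, a kinetochore protein, at 9.07, 30.9, 30.2 and 81.4 CPM. Pcna was at 81.6, 119, 109 and 92.6 CPM. The share of cells with at least 3 mitosis UMIs was 7.50%, 10.5%, 8% and 10.2%, so the CPM differed more than the share did. Depth was lower at 33 weeks, with a median of 1525 UMIs per cell against 5954 to 6464.5 UMIs in the other libraries.

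Ependymal-like cells line the central canal and carry motile cilia. Their positive share was 55.0%, 53.2%, 42.7% and 54.5% in the 4 libraries (140, 94, 117 and 123 cells), at a median depth of 7932 UMIs over the libraries. Tpx2 stood at 37.8, 45.8, 51.4 and 48.7 CPM, Kif11 at 23.7, 23.9, 14.8 and 13.3 CPM, and Pcna at 37.4, 47.8, 42.3 and 50.6 CPM. Mki67, by contrast, had 2, 1, 0 and 0 UMIs in these cells, Birc5, a subunit of the chromosomal passenger complex, 1, 0, 2 and 1 UMIs, and Ube2c 2, 2, 3 and 6 UMIs. Of the 724 UMIs of mitosis members in this class 297 were of Tpx2, 127 of Kif11 and 102 of Cenpf, while Mki67, Birc5 and Ube2c, which were high in blood precursors, were near 0. Of the members that passed the count filter, 1 of 12 was higher (5.38%) and 0 lower (7.28%) for P301S hom over neg, 2 of 12 higher (6.7%) and 2 lower (6.59%) for CD8 KO as labelled over CD8 WT, and 0 of 9 higher (7.09%) and 2 lower (5.48%) for 33 over 30 weeks.

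Endothelial-like cells had Pcna at 75.9, 76.99, 78.9 and 78.4 CPM and Stmn1 at 258, 261, 296 and 298 CPM in the 4 libraries. The 2 mitosis members with most UMIs were Cdc20, an activator of the anaphase-promoting complex, at 2.43, 2.29, 1.66 and 2.36 CPM, and Nusap1 at 2.81, 1.22, 1.48 and 0.994 CPM. Mki67 had 6, 8, 0 and 0 UMIs over 1754, 1008, 1004 and 1244 cells. Members that passed the count filter numbered 17, 12 and 11 in the 3 comparisons. For P301S hom over neg 2 were higher (4.64% of genes tested) and 4 lower (6.41%), for CD8 KO as labelled over CD8 WT 1 was higher (2.97%) and 1 lower (3.95%), and for 33 over 30 weeks 2 were higher (3.1%) and 0 lower (4.86%).

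In Schwann-like cells, the myelin-forming cells of nerve roots, Stmn1 was at 1447, 941, 1500 and 811 CPM, and Pcna at 113, 97.4, 71.4 and 90.5 CPM, while Prc1, which bundles the central spindle, had 0, 3, 1 and 0 UMIs and Racgap1, its partner in cytokinesis, 2, 1, 0 and 0 UMIs. Smooth muscle-like cells of P301S neg had 188 CPM of mitosis members against 11.7, 16.2 and 13.5 CPM in the other libraries. There 1 of 99 cells held 3 or more mitosis UMIs, and Ube2c had 23 UMIs and Mki67 19 UMIs, against 0 in the other 3 libraries. Rrm1 was at 72.4, 123, 48.6 and 73.3 CPM in this class. Fibroblast-like and astrocyte-like cells had Pcna at 60.4 to 68.7 CPM and 36.3 to 98.8 CPM, and no mitosis member had more than 3 UMIs in any library of either class among the 2 with most UMIs, Nusap1 and Ccnb2, and Cdca8 and Spc25.

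T-like cells had Pcna at 98.8, 86.7, 87.3 and 74.3 CPM, Racgap1 at 70.6, 35.7, 43.6 and 9.28 CPM (10, 7, 9 and 1 UMIs) and Top2a at 7.06, 40.8, 33.9 and 37.1 CPM (1, 8, 7 and 4 UMIs). Positive shares were 20.6%, 19.6%, 10.1% and 9.76% of 34, 51, 69 and 41 cells, with intervals that overlapped. Mature B-like cells had Pcna at 79.6, 69.7, 49.8 and 90.0 CPM, and Top2a at 51.0 CPM in P301S neg, where 2 of 126 cells held it, 9.96 CPM in the 30-week P301S hom CD8 WT library and 0 in the other 2.

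Macrophage-like cells, which include the microglia of the cord, were the largest class, with 1333, 1941, 1586 and 2328 cells in the 4 libraries. Different clusters held most of the class in the groups compared. In P301S neg 1050 of the cells were in cluster 8, led by the homeostatic microglia genes P2ry12, Gpr34 and Tmem119. In the P301S hom libraries most cells were in clusters 30 (520, 426 and 788 cells), 24 (486, 286 and 463 cells) and 35 (436, 412 and 369 cells), led by Ccl3 in the first and by Gpnmb and Spp1 in the other 2, where P301S neg had 26, 2 and 0 cells.

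The positive share was 15.7% in P301S neg (interval 13.8 to 17.7), 36.0% and 29.0% in P301S hom CD8 WT at 30 and 33 weeks (33.9 to 38.2 and 26.8 to 31.3) and 32.6% in the library labelled CD8 KO (30.7 to 34.6). Depth moved with it: the median was 4985, 10418, 8170 and 9438 UMIs per cell. After thinning to 1000 UMIs, which left out 148, 32, 46 and 40 cells, it was 0.844%, 1.05%, 1.17% and 1.70%, and with 2000 UMIs per cell 2.80%, 2.21%, 2.29% and 2.88%. The positive cells were mostly just over the threshold, with 161, 431, 293 and 470 cells at 3 or 4 UMIs, while 556, 835, 727 and 1057 cells lay just under it at 1 or 2 UMIs. At 20 or more UMIs there were 4, 14, 17 and 32 cells.

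In sum, S phase members hardly differed between the libraries in this class, at 171, 157, 166 and 170 CPM, and Pcna was the largest part of each sum. Pcna stood at 83.1, 83.9, 81.5 and 82.6 CPM and Mcm3 at 39.8, 29.2, 31.0 and 31.3 CPM. Mcm6 was at 8.63, 11.0, 11.7 and 13.2 CPM and Rrm1 at 9.59, 9.03, 12.01 and 11.2 CPM. Mitosis members did differ, at 51.1 CPM in P301S neg, 79.3 and 139.8 CPM in P301S hom CD8 WT at 30 and 33 weeks and 112 CPM in the library labelled CD8 KO. The ratio for P301S hom over neg at 30 weeks was 0.92 (interval 0.86 to 0.99) for S phase and 1.55 (1.37 to 1.75) for mitosis members. Neither ratio is scaled, and the median log2 ratio over all genes tested was -0.37. Of the 10 S phase members, 1 was at least 1.5-fold higher there (11.6% of genes tested) and 2 were lower (36.2%). For CD8 KO as labelled over CD8 WT 3 were higher (4.39%) and none lower (2.75%). At 33 over 30 weeks none was higher (3.12%) or lower (3.1%).

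The 6 mitosis members with most UMIs were each lowest in P301S neg. Top2a stood at 2.40, 7.12, 12.8 and 9.06 CPM, and Ube2c at 3.36, 6.36, 14.8 and 8.28 CPM. Mki67 was at 1.28, 4.02, 9.97 and 8.28 CPM and Birc5 at 2.24, 3.49, 8.22 and 5.81 CPM, so these 4 genes were highest at 33 weeks. Cdk1 was at 2.56, 7.79, 10.2 and 9.06 CPM, again highest at 33 weeks. Ckap2l, a spindle protein, was at 4.95, 7.55, 6.46 and 9.06 CPM and was highest in the library labelled CD8 KO. Stmn1 stood at 68.7, 57.5, 77.7 and 69.5 CPM and Kpna2 at 1.60, 2.58, 2.39 and 2.30 CPM.

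**Figure D5:**
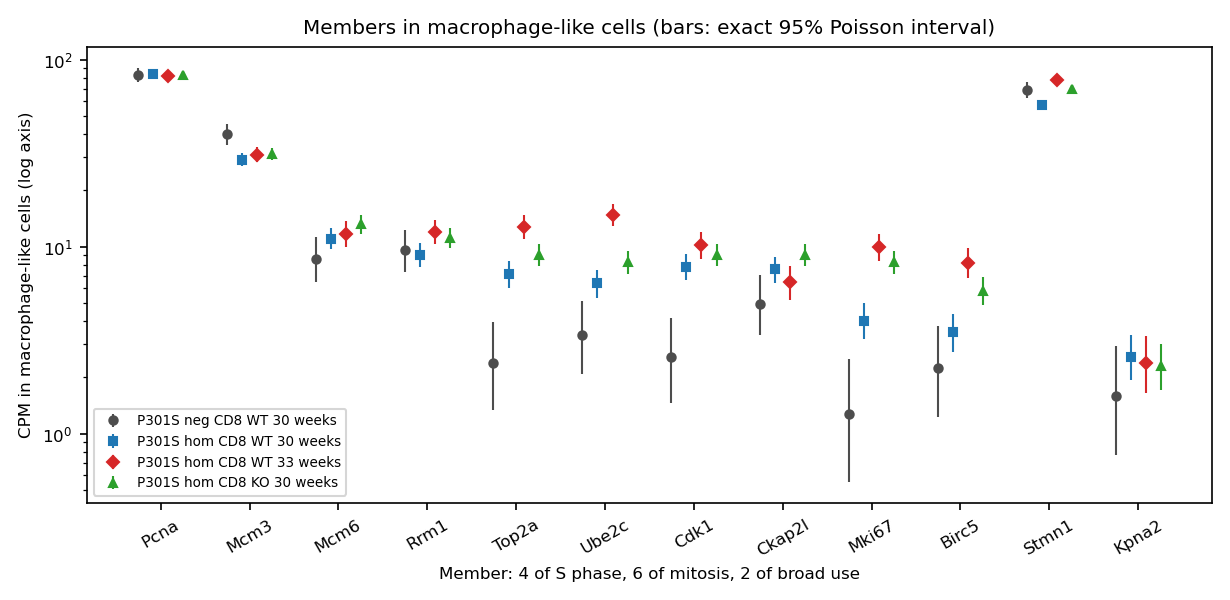
Levels (CPM, log axis) of 4 S phase members, 6 mitosis members, Stmn1 and Kpna2 in the macrophage-like cells of each library, with exact 95% Poisson intervals for counting error. Pcna lies between 81.5 and 83.9 CPM in all 4 libraries, while Mki67 goes from 1.28 CPM in P301S neg to 9.97 CPM in the 33-week P301S hom CD8 WT library.

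For P301S hom over neg at 30 weeks, 19 of 38 members tested in macrophage-like cells were at least 1.5-fold higher, against 11.6% of 11765 genes tested, and 4 were lower, against 36.2%. The median log2 ratio over all genes tested was -0.37, and the median of mitosis members, 0.69, and of S phase members, -0.27, are to be read against it. TMM scaling, with a log2 shift of -0.44, gave 22 higher and 1 lower. The higher members were 17 mitosis members, Pclaf and Kpna2. Mki67 was 3.14-fold higher (interval 1.52 to 7.51), Cdk1 3.05-fold (1.82 to 5.46) and Top2a 2.97-fold (1.74 to 5.44). Nusap1, Bub1b, Ccnb1 and Aurka had 1 to 3 UMIs in P301S neg, so their ratios carry wide intervals, for Nusap1 9.57 (1.60 to 390). Kif11, chosen after its values were seen, was the reverse, at 7.83 CPM in P301S neg and 3.49 CPM in P301S hom (ratio 0.45, interval 0.31 to 0.65), and Rrm2, Tk1 and Plk1 were the other 3 lower members. With the 10 cells of most mitosis UMIs left out of each library, 5 members were higher and 3 lower, and with cell cycle genes kept in the clustering 5 were higher and 10 lower. That clustering drew the class anew, and how many of the cells with mitosis UMIs stayed in it was not counted.

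At 33 over 30 weeks in P301S hom CD8 WT, 22 of 39 members were at least 1.5-fold higher in macrophage-like cells, against 3.12% of 11884 genes tested, and none was lower, against 3.1%. All 22 were mitosis members, and their group ratio was 1.76 (1.65 to 1.88) beside 1.06 (1.001 to 1.11) for S phase members. The median log2 ratio was 0.80 over mitosis members, 0.13 over S phase members and 0.01 over all genes. Mki67 was 2.48-fold higher (1.88 to 3.29) and Ube2c 2.32-fold (1.86 to 2.90). Mitosis UMIs lay in few cells: 10 cells held 73.4% of the 1991 mitosis UMIs at 33 weeks and 59.4% of the 1659 at 30 weeks. In P301S neg and the library labelled CD8 KO 10 cells held 45.3% and 61.8%. Without the 10 cells of most mitosis UMIs in each library 9 members were higher and 3 lower at 33 over 30 weeks. The 33-week library held both sexes, with mitosis members at 59.7 CPM in female and 239 CPM in male cells, against 79.9 CPM in the female cells at 30 weeks. With female cells alone 0 members were higher and 10 lower.

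Marrow and blood genes differed along the same comparison, and their part in the result was not tested. Of 20 such genes, among them the haemoglobins Hba-a1 and Hbb-bs and the granule genes S100a8 and Elane, 10 or more UMIs were present in 19 of the 37 macrophage-like cells with at least 3 mitosis UMIs at 33 weeks, and in 20.9% of the other cells of the class. The same was true of 7 of 39 cells and 6.41% of the others at 30 weeks, 3 of 10 and 8.84% in P301S neg, and 3 of 69 and 0.664% in the library labelled CD8 KO. This cut was a count of UMIs, not scaled to depth, and it also set the cells left out below. At 33 weeks the median depth was 13634 UMIs in cells with at least 3 mitosis UMIs and 5041 in those without any member UMI. In CPM the 20 genes summed to 784 in the first and 3534 in the second. The order was the same at 30 weeks (382 and 501) and in P301S neg (1012 and 1423). For CD8 KO as labelled it was reversed (6790 and 328), with 6664 haemoglobin UMIs in 1 cell. Without all cells that held 10 or more UMIs of the list, the mitosis members summed to 43.5, 64.5, 49.9 and 108 CPM in the 4 libraries. The 33 over 30 week comparison then had 1 member higher and 8 lower, so its direction did not hold in these cells.

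At 30 weeks the library labelled CD8 KO, set over CD8 WT, had 15 of 39 members at least 1.5-fold higher in macrophage-like cells, against 4.39% of 12289 genes tested, and none lower, against 2.75%. These were 12 mitosis members, Pclaf, Rrm2 and Tk1. The group ratio was 1.41 (1.33 to 1.504) for mitosis and 1.08 (1.03 to 1.13) for S phase members, and the median log2 ratios were 0.41 and 0.28, beside 0.03 over all genes. Cenpf, chosen after its values were seen, stood at 6.15 against 2.87 CPM (ratio 2.15, interval 1.58 to 2.95) and Mki67 at 2.06-fold (1.59 to 2.70). Without the cells with marrow and blood genes 19 members were higher, and without the 10 cells of most mitosis UMIs 12 were higher and 1 lower. The cells compared were male against female. In male cells alone, where the only CD8 WT library at P301S hom is that of 33 weeks, 1 member was higher and 23 were lower in the library labelled CD8 KO.

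Inside the class the mitosis members varied by cluster. Cluster 30, led by Ccl3, had 179 CPM, cluster 24, led by Spp1, Gpnmb and Mmp12, had 113 CPM, cluster 8 had 52.0 CPM, and clusters 35 and 17 had 34.7 and 33.0 CPM. Cluster 7, of low depth (median 1977 UMIs), had 158 CPM, of which the 33-week library had 363 CPM. In cluster 30 the libraries stood at 208 CPM in P301S neg (26 cells), 147 and 199 CPM in P301S hom CD8 WT at 30 and 33 weeks and 190 CPM in the library labelled CD8 KO. In cluster 8 they stood at 44.5, 34.6, 24.5 and 106 CPM. P301S neg was thus not the lowest library in either cluster.

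Macrophage-like cells with at least 3 mitosis UMIs numbered 10, 39, 37 and 69 in the 4 libraries. They made up 0.750% (interval 0.360 to 1.38), 2.01% (1.43 to 2.74), 2.33% (1.65 to 3.20) and 2.96% (2.31 to 3.74) of the class. These shares are not at equal depth: the class was shallowest in P301S neg, as given above, and no thinned share was made for mitosis members alone. Without the cells that held 10 or more UMIs of marrow and blood genes the shares were 0.577%, 1.77%, 1.45% and 2.86%, so that the 33-week share was then below the 30-week one. Their median depth over the libraries was 12695 UMIs, against 4786 UMIs in the 1886 cells without any member UMI, and they were set against those cells for genes that are not members. The 2 sides were chosen by UMIs of the members, so genes expressed along with the members are higher by selection. The counts of other mitotic and replication genes are therefore a description and no independent support. Of 46 other mitotic genes 45 could be compared, and 45 were at least 1.5-fold higher, where 13.9% of 10802 genes were higher and 13.5% lower. H2afz, a histone variant, stood at 1504 against 498 CPM, Hmgb2, a chromatin protein, at 687 against 212 CPM, and Tubb4b, a tubulin, at 309 against 98.6 CPM. Of other replication genes 32 of 35 were higher, among them Usp1, a deubiquitinase of DNA repair, at 49.7 against 13.6 CPM, but Slbp, which binds histone mRNA, was at 156 against 135 CPM.

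Genes that govern entry into and exit from the cycle were mixed in the same comparison. Of the G1 cyclins, kinases and E2F factors 11 of 15 were higher and 1 lower. Cdk4 stood at 129.7 against 78.8 CPM and Ccnd1, its cyclin partner, at 91.5 against 54.1 CPM, while Ccnd3 was level at 63.0 against 61.3 CPM. Of 18 inhibitors and exit genes 5 were higher and 2 lower. Cdkn1a, the p53 target p21, was at 422 against 240 CPM, and Btg2, an antiproliferative gene, at 1413 against 2305 CPM. Within a library Btg2 went both ways, at 4230 against 3828 CPM in P301S neg, 1146 against 1796 and 1226 against 2170 CPM in P301S hom CD8 WT at 30 and 33 weeks and 1474 against 1996 CPM for CD8 KO as labelled. By library, G1 genes were higher for 5 of 7, 4 of 9, 4 of 9 and 5 of 9 and lower for 1, 1, 1 and 2. Inhibitors and exit genes were higher for 6 of 14, 6 of 16, 6 of 15 and 8 of 17 and lower for 0, 5, 2 and 0.

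The same cells had 6 of 15 disease-associated microglia genes higher and none lower. Spp1 was among the higher, at 5334 against 2678 CPM. Apoe, at 37473 against 40242 CPM, and Ctsd, a lysosomal protease, at 18685 against 13071 CPM, did not pass 1.5-fold. Of 12 homeostatic microglia genes 5 were lower and none higher. Csf1r, the receptor that microglia need to survive, stood at 1296 against 1895 CPM and was not among the 5, at 1.46-fold lower. Of 13 early response genes of dissociation 10 were lower, with Fos at 2754 against 4448 CPM, but within a library 2 of 13, 4 of 12, 10 of 12 and 0 of 12 were lower. The groups put unequal numbers of cells on each side, so the pooled values mix the libraries. Within a library, disease-associated genes were higher for 5 of 15 and 6 of 15 in P301S hom CD8 WT at 30 and 33 weeks and 6 of 15 in the library labelled CD8 KO, and in P301S neg 4 of 12 were higher and 6 lower. Homeostatic genes were lower for 2, 3, 5 and 4 of 12 in the 4 libraries. Of all genes compared in the same way 24%, 15.2%, 20% and 14.9% were higher and 29.9%, 15.3%, 16.2% and 10.5% lower by library.

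The other lists were also compared over the whole class, and their counts are to be read beside the shares of all genes given above. For P301S hom over neg, where 11.6% of all genes were higher and 36.2% lower, 7 of 31 other mitotic genes were higher and 6 lower, and 3 of 34 other replication genes were higher and 7 lower. For CD8 KO as labelled over CD8 WT, 12 of 43 and 6 of 37 were higher and none lower, beside 4.39% and 2.75% of all genes. At 33 over 30 weeks, 15 of 42 other mitotic genes were higher and none lower, and 4 of 35 other replication genes were higher and 1 lower, beside 3.12% and 3.1% of all genes. The G1 genes and the inhibitors and exit genes lay near the shares of all genes for P301S hom over neg. Of 14 G1 genes tested 1 was higher and 6 lower, with Ccnd1 at 107 CPM in P301S neg and 54.7, 49.4 and 57.6 CPM in the P301S hom libraries, and Cdk4 at 75.8 CPM and 91.9, 99.8 and 90.0 CPM. Of 18 inhibitors and exit genes 2 were higher and 7 lower in that comparison, with Btg2 at 3794 CPM in P301S neg and 1476, 1630.5 and 1765 CPM in the P301S hom libraries, and Cdkn1a at 217, 269, 265 and 277 CPM.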

How the data were processed

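The authors deposited UMI counts for each gene and cell barcode from 4 libraries, made with Cell Ranger 6.0.1 per the file headers, on mm10 per the submitters' processing notes. Barcodes were kept from 500 UMIs and 200 genes on if no more than 15% of their UMIs were mitochondrial, and doublets called with Scrublet in scanpy 1.11.5 (290 barcodes, 1.01% to 1.83% by library) were removed. Kept cells were scaled to 10000, log-transformed and clustered on 2000 variable genes (30 components, 15 neighbours, resolution 1.0). Mitochondrial, ribosomal and sex-linked genes were left out of the clustering, as were the members and the other replication, mitotic and G1 genes. The inhibitors and exit genes were not left out. Clusters that best matched lymphoid, plasma, dendritic, basophil, progenitor or early neutrophil markers were clustered a second time (15 components), there also without immunoglobulin genes. Clusters were named from marker lists, with at least 3 markers detected in at least 10% of cells. A cluster was left unnamed when its 10 leading genes held more markers of a class of another lineage than of its own. After the data were seen, the naming check for foreign markers was changed: progenitor, megakaryocyte, basophil, dendritic and plasma markers were skipped, and monocytes and neutrophils were treated as 1 lineage.

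Counts were summed by class and library. A gene was compared when it had at least 20 UMIs over both libraries and was counted as higher or lower from 1.5-fold. Intervals are exact at 95% (binomial for shares, Poisson for levels, conditional binomial for ratios). The zero shares of mature neutrophil-like cells are given with the share that 3 counts would make, and levels of 0 have no such bound. With 1 library in each group no p-value was computed, and the calculations were tested on simulated data. Genes named are those with most UMIs in a class (1 S phase and 2 mitosis members, in macrophage-like cells 4 and 6 with Stmn1 and Kpna2), in other lists up to 4 with most UMIs, and for promoters 2 S phase and 3 mitosis members. The highest class of each member was also given, and genes named by other reasons were chosen after their values were seen, including those shown across the erythroid and B precursor clusters. The members and lists were chosen with earlier results of these data known. Promoter sequences are those of RefSeq, build GRCm38.p6, with 34 of 39 members matched. Python 3.11.15, numpy 2.4.6, scipy 1.17.1 and pandas 2.3.3 were used.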

Additional observations from a re-analysis of the deposited data

Results flagged for a closer look

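A group of 60 cells best matched the monocyte markers, with 6 of them detected. Dendritic markers were its second match, and its 10 leading genes held 2 of these, H2-Ab1 and Cd209a, and 1 marker of monocytes. The group was therefore left unnamed and was in no comparison. Many of its cells had at least 3 member UMIs. The share was 94.1% of 17 cells in the 30-week P301S hom CD8 WT library, 75.0% of 12 cells in P301S neg, 70.0% of 20 cells in the 33-week P301S hom CD8 WT library and 63.6% of 11 cells in the library labelled CD8 KO. Mature neutrophil-like cells stood at 0.415%, but at a median of 1481 UMIs per cell against 8518.5 UMIs in the group of 60. These shares are therefore not at equal depth. Mitosis members summed to 2990, 3020, 2633 and 2157 CPM in the 60 cells, by library in the same order.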

How the results depend on the processing

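Of 104 values recomputed for 10 results, 60 kept their size and 44 moved. In macrophage-like cells the balance of higher and lower members turned from mostly higher to mostly lower for P301S hom over neg with cell cycle genes kept in the clustering. It also turned for 33 over 30 weeks in female cells and without cells holding marrow and blood genes. Male cells of the library labelled CD8 KO had mostly lower members, but they were set against the 33-week library, so age and library changed as well as sex. In that 33-week library mitosis members were at 239 CPM in male and 59.7 CPM in female cells. The share of positive macrophage-like cells, in the order P301S neg, P301S hom CD8 WT at 30 and 33 weeks and the library labelled CD8 KO, was 29.8%, 55.4%, 46.8% and 52.9% at 2 or more UMIs and 3.60%, 13.8%, 10.5% and 12.4% at 5 or more. Without Stmn1 and Kpna2 it was 9.30%, 27.2%, 21.6% and 25.04%, and over mitosis members 0.750%, 2.01%, 2.33% and 2.96%. Thinned to 1000 UMIs it was 0.844%, 1.05%, 1.17% and 1.70%, and to 2000 UMIs 2.80%, 2.21%, 2.29% and 2.88%. Without cells holding marrow and blood genes it was 23.96% at 33 weeks.

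For P301S hom over neg, 8 members were higher and 1 lower at 2-fold, 5 higher and 10 lower with cell cycle genes kept in the clustering, and 5 higher without the 10 cells of most mitosis UMIs in each library. The count of lower members was 1 with TMM scaling, 2 at 50 or more UMIs and 2 without cells holding marrow and blood genes. For CD8 KO as labelled over CD8 WT, 3 were higher at 2-fold, 1 was higher and 23 lower in male cells against 33 weeks, and 1 was lower without the 10 cells. For 33 over 30 weeks, 10 were higher at 2-fold, 0 higher and 10 lower in female cells, 1 higher and 8 lower without cells holding marrow and blood genes, and 9 higher and 3 lower without the 10 cells. Leaving out the cells with marrow and blood genes and the 10 cells were alternatives chosen after seeing the data. The cause of these differences was not tested.

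No paired analysis was possible because each group had 1 library. Intervals cover counting error only, and differences between mice could not be measured. Mitosis members in macrophage-like cells had 320 to 2587 UMIs per library, many from 10 cells, so single genes there rest on few cells. CD8 genotype cannot be told apart from sex at 30 weeks.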

Other observations

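Genes that act at entry into the cycle did not all have their highest levels in the blood precursors that led most members. Ccnd3, a G1 cyclin, stood at 573 CPM in B precursor-like, 444 CPM in intermediate neutrophil-like and 425 CPM in monocyte-like cells over the 4 libraries, against 55.7 CPM in macrophage-like cells. Ccnd2, another G1 cyclin, was at 564 CPM in smooth muscle-like and 519 CPM in ependymal-like cells, where the mitosis members were low. Ccnd1 reached 1256 CPM in oligodendrocyte precursor-like cells, its highest class. E2f2, a factor of S phase entry, was at 191 CPM in erythroid-like and 138 CPM in B precursor-like cells.

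Cdkn1a, the inhibitor p21, was highest in endothelial-like cells, at 1317, 1838, 1698 and 2032 CPM in the 4 libraries, with P301S neg first, then P301S hom CD8 WT at 30 and 33 weeks, then the library labelled CD8 KO. Btg2 stood at 6355 CPM in ependymal-like cells. These genes were chosen after their values were seen.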
